A study of Rattus norvegicus with 48 samples.

Results

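The miR-148 and miR-152 family of the rat was followed through 48 small RNA libraries, 32 of serum and 16 of ulna bone. Its members were taken as every listed mature miRNA whose name starts with rno-miR-148a, rno-miR-148b or rno-miR-152. This gave 6 miRNAs of 763 listed, of which 629 had at least 1 read: the 3p and 5p arms of miR-148a, miR-148b and miR-152. All 6 had reads in both tissues.

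A miRNA precursor is a hairpin that is cut into a 5p and a 3p strand, one of which usually dominates as the guide strand. The guide finds its messenger RNAs mainly through its seed, a short stretch near its 5′ end, so miRNAs that share a seed share many predicted targets. The 3p strands of miR-148a, miR-148b and miR-152 are such a family and are known for repressing the DNA methyltransferases DNMT1 and DNMT3B, the enzymes that maintain and set DNA methylation. MiR-148a is also known as an abundant miRNA of liver and as a promoter of osteoclast formation.

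The 3 dominant 3p strands are shown first because the family is defined by their seed, which stands in capitals (bases 2 to 8 from the 5′ end) in these RefSeq sequences of the GRCr8 assembly.
rno-miR-148a-3p: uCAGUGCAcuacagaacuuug
rno-miR-148b-3p: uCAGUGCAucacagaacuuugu
rno-miR-152-3p: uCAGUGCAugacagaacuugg

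Of the 693 rat mature miRNAs in the RefSeq table, exactly 3 had CAGUGCA at bases 2 to 8, and they were these 3. The same 7 letters began at base 1 in 3 others, miR-130a-3p, miR-130b-3p and miR-301b-3p, whose own seeds are therefore shifted by 1 base. With the base of miR-148a-3p given first and positions counted from the 5′ end, miR-148b-3p differed from it by C9U and U10C over 21 bases, and miR-152-3p by C9U, U10G and U20G. MiR-148b-3p and miR-152-3p differed from each other by C10G and U20G, with the base of miR-148b-3p first. The authors kept reads from 17 nt and allowed 1 mismatch to the mature sequence, and over the first 17 bases miR-148b-3p and miR-152-3p differed at 1 base only, so short reads may have been shared between members, and the smaller counts of miR-148b-3p are uncertain in that respect.

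The minor 5p strands of miR-148a and miR-152 are shown because their seeds, again in capitals, differed from that of the 3p strands and from each other. The 5p strand of miR-148b was not in the RefSeq table, so its seed was not compared.
rno-miR-148a-5p: aAAGUUCUgagacacucugacuc
rno-miR-152-5p: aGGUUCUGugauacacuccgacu

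In GRCr8 the 3p strand of miR-148a lay at chr4:81664447-81664467 on the minus strand, within a hairpin at chr4:81664431-81664527, and no other gene of the RefSeq table overlapped it. The 3p strand of miR-148b lay at chr7:136299930-136299951 on the plus strand, within Copz1, and that of miR-152 at chr10:82329435-82329455 on the plus strand, within Copz2. Copz1 and Copz2 encode paralogous subunits of the COPI coat of transport vesicles. The files themselves were mapped by the authors to the older assembly Rnor 6.0, whose coordinates were not used here.

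All animals were male rats on a diet rich in fat and carbohydrate in which a femoral bone defect had been made. ZDF rats, homozygous for a leptin receptor mutation (fa/fa), had become diabetic spontaneously, and lean rats (+/+) served as WT. The serum libraries were of 5 WT and 5 ZDF rats on placebo (water), 5 WT and 5 ZDF rats given PTH, which is parathyroid hormone, 4 WT and 4 ZDF rats given an antibody against sclerostin, an inhibitor of bone formation, and 4 ZDF rats given insulin, all collected 12 weeks into treatment. Ulna came from 4 WT and 4 ZDF rats under placebo and 4 WT and 4 ZDF rats under PTH. The paper's methods take most of the bones from rats whose serum was also sequenced, but the labels do not link them, so p-values here measure only the spread between the libraries of a group. The ZDF strain is a model of 1 mutation on 1 genetic background.

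The serum libraries held 28015 to 205664 reads on miRNAs, 0.529 to 4.09% of all their reads, and the bone libraries 41627 to 1398702, or 1.58 to 21.5%. In serum the erythrocyte list (miR-451-5p, miR-144-3p, miR-144-5p and miR-486) summed to 2.56 to 27.3% of the miRNA reads and the liver list to 0.0789 to 2.40%, against 0.659 to 1.36% and 0.00250 to 0.0216% in bone. In bone the striated muscle list summed to 5.34 to 34.1% and the skeletal mesenchyme and cartilage list to 2.64 to 7.67%, against 0.0139 to 4.72% and 1.62 to 5.07% in serum. The leukocyte list took 1.02 to 7.52% in serum and 0.336 to 0.972% in bone, and the endothelium and platelet list 0.370 to 2.07% and 0.716 to 3.20%. Muscle miRNAs were thus a large part of the ulna libraries, and in such bulk samples fewer cells of a type and less RNA per cell cannot be told apart.

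The family was not a larger part of serum than of bone. Its 6 members together took 0.215 to 0.707% of the miRNA reads of a serum library, with a median of 0.423%, and 0.495 to 3.38% of a bone library, with a median of 0.864%. These were 91 to 1401 reads in serum and 628 to 7977 in bone. MiR-148a-3p alone ranked between 26 and 59 among all miRNAs by reads in the sera, with a median rank of 44.25, and between 6 and 52 in the bones, with a median of 37.5. MiR-152-3p ranked between 60 and 134.5 in serum and 47 and 62 in bone, and miR-148b-3p between 96.5 and 163.5 and between 81.5 and 173.5. The description of the family as abundant in serum therefore applied to miR-148a-3p, and no more than to bone.

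Reads fell off steeply from member to member. MiR-148a-3p had 59 to 1237 reads in a serum library and 354 to 5235 in a bone library. MiR-152-3p had 8 to 156 and 55 to 2365 reads, and miR-148b-3p 6 to 66 and 19 to 236. The 5p strands were near the limit of detection in serum, and so did not pass the filter on low counts there. MiR-148a-5p had 0 to 6 reads a serum library and at least 1 read in 19 of 32, miR-148b-5p 0 to 7 reads in 29 of 32, and miR-152-5p at most 1 read, in 12 of 32. A library with 0 reads allows up to 3 reads by counting error alone. In bone miR-148a-5p was read in all 16 libraries, at 8 to 113 reads, while miR-148b-5p and miR-152-5p were each read in 14 of 16, at up to 20 and 25 reads. The 3 3p strands passed the filter in all comparisons and miR-148a-5p in all comparisons within bone, and these were the members tested.

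**Figure D1:**
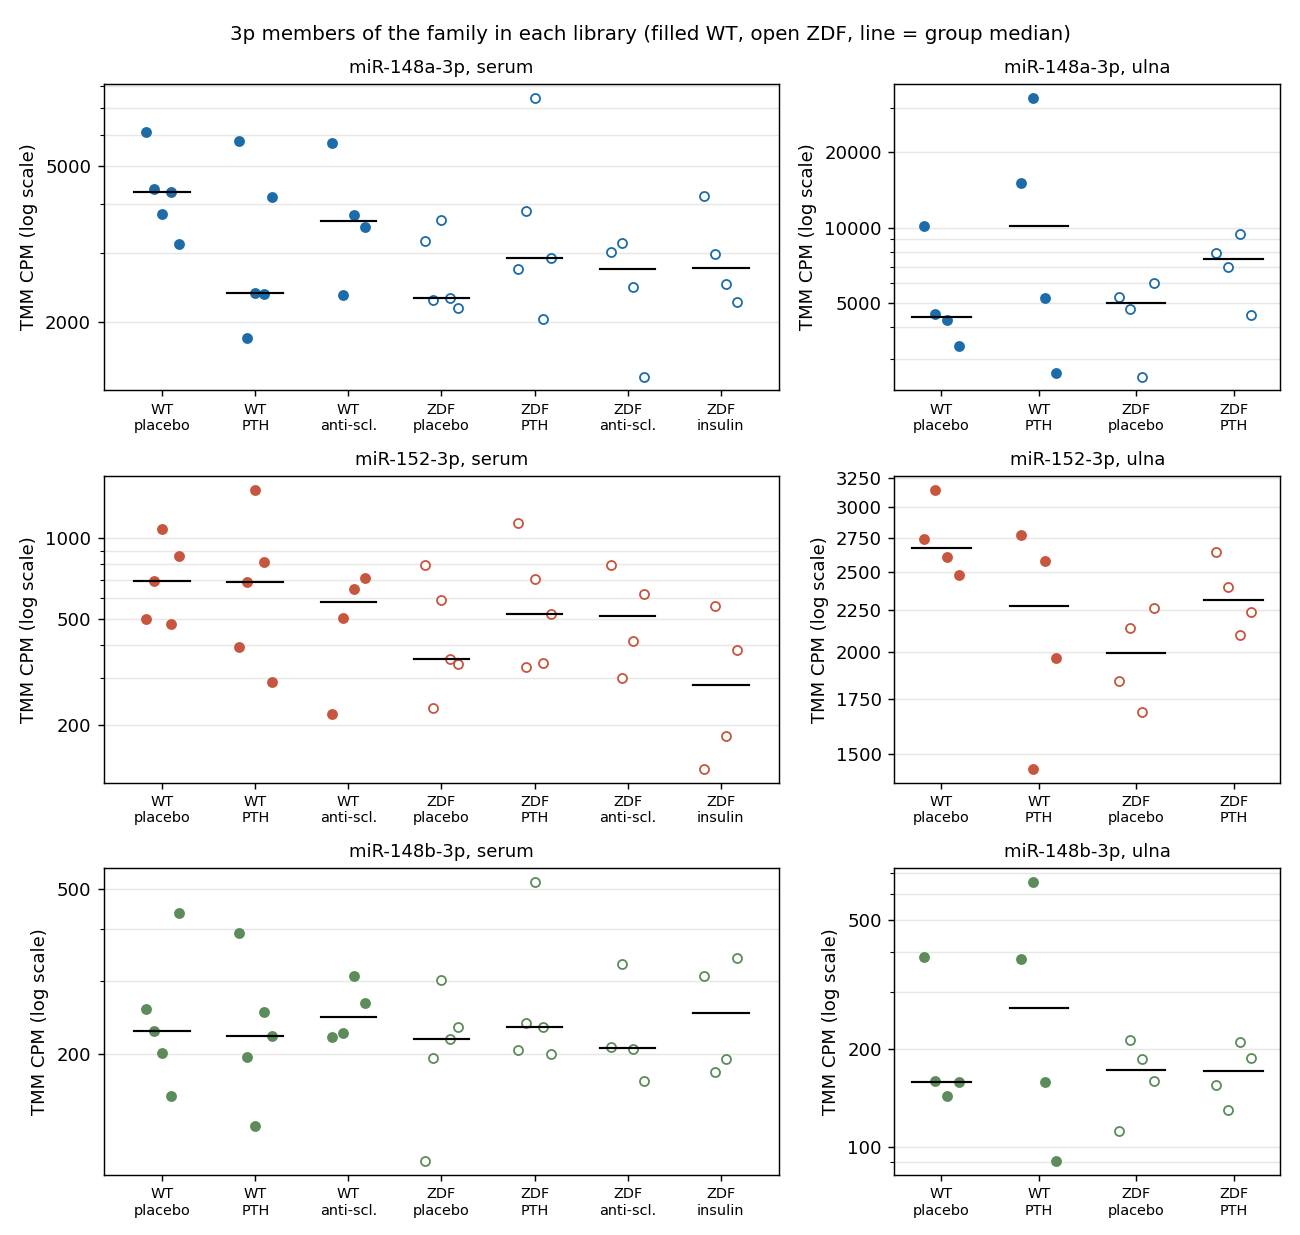
TMM CPM (log axes that differ between panels) of the 3 3p strands in each library, by group, with serum and ulna normalized separately; points are libraries (filled WT, open ZDF) and lines are group medians. The WT PTH bones spread widest for miR-148a-3p, from 2633 to 33139 CPM. The ZDF placebo bones lie below all WT placebo bones for miR-152-3p on this scale, while these groups overlapped per miRNA read without TMM.

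In serum, miR-148a-3p was the highest member in each group, and its group means spanned 1.72-fold. In CPM, which are counts scaled to the miRNA reads of a library and adjusted by TMM (a trimmed mean of ratios between libraries), WT placebo sera held 6104, 4369, 3770, 4286 and 3164, a mean of 4339 ± 1098 (SD, n = 5). WT sera under anti-sclerostin followed with 5725, 2345, 3747 and 3503 CPM, and ZDF sera under PTH with 2733, 3846, 7462, 2042 and 2916 CPM. WT sera under PTH were next in that order, at 5772, 1827, 2372, 2363 and 4170 CPM, a mean of 3301 ± 1641 (SD, n = 5). All these groups overlapped one another. Lower means were found in ZDF sera under insulin, with 4178, 2987, 2504 and 2245 CPM, and in ZDF placebo sera, with 3213, 2283, 3647, 2308 and 2179 CPM and a mean of 2726 ± 663 (SD, n = 5). ZDF sera under anti-sclerostin were lowest, at 3017, 3182, 2454 and 1454 CPM. Each of these groups overlapped its neighbours in the order.

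MiR-152-3p was several times lower in serum and varied more from rat to rat than between groups. Its levels in WT placebo sera were 498, 694, 1085, 476 and 859 CPM, and those in ZDF placebo sera 794, 231, 585, 353 and 339 CPM. Sera under insulin held 137, 558, 182 and 381 CPM, the lowest group mean at 315 ± 194 (SD, n = 4). Its group means spanned 2.35-fold in serum, and those of miR-148b-3p, which lay between 111 and 519 CPM in every serum library, only 1.32-fold.

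The comparison of ZDF with WT sera under placebo asks whether diabetes of this kind changes circulating miRNAs. MiR-148a-3p was lower in ZDF by 0.74 on the log2 scale in the fit, with an edgeR quasi-likelihood Benjamini-Hochberg adjusted p of 0.321 (log2 fold change -0.74, SE 0.293, 95% interval -1.36 to -0.123). It therefore did not pass the threshold on the adjusted p (0.2), and an exact two-sided permutation test of this 1 miRNA gave p = 0.0238, where 0.00794 is the smallest possible. The highest ZDF serum lay within the range of the WT sera, and the 2 groups overlapped. MiR-152-3p had a log2 fold change of -0.75 (SE 0.393, edgeR adjusted p 0.453) and miR-148b-3p of -0.37 (SE 0.397, edgeR adjusted p 0.83). So 0 of 3 members tested passed, where 6.1% of all 164 miRNAs did. In this comparison the liver list, to which miR-148a does not belong although it is abundant in liver, was higher in ZDF for 4 of 4 miRNAs tested, with a median log2 fold change of 2.01 against -0.09 over all miRNAs. The paper had already reported miRNAs of the liver list as raised in these ZDF sera, so that count is no independent result. The erythrocyte list had 0 of 4 called.

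These 6 comparisons ask whether the anabolic treatments change the genotype difference or the level in serum: under PTH and under anti-sclerostin, ZDF and WT sera were compared again, and each treatment was compared with placebo in both genotypes. None of the family passed in any of these comparisons by edgeR or DESeq2, and none had an unadjusted p under 0.05. The log2 fold changes of the 3 members lay between -0.33 and 0.21 for ZDF against WT under PTH and between -0.45 and 0.15 under anti-sclerostin. For PTH against placebo they were -0.45 to 0.02 in WT and 0.41 to 0.50 in ZDF. For anti-sclerostin against placebo they were -0.67 to -0.21 in WT and -0.04 to 0.24 in ZDF. The share of all miRNAs called was 0% in the first 5 of these comparisons and 1.27% (2 of 158) for anti-sclerostin in ZDF. Comparisons that share a placebo group share its libraries. Over all 8 serum comparisons, 0 of 24 member values passed, 1 of 24 had an unadjusted p under 0.05, and the smallest edgeR adjusted p was 0.321, while DESeq2 called 1 (miR-148a-3p in the placebo comparison of genotypes).

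Insulin was the treatment with the widest response in serum, 26.5% of 151 miRNAs, and the family had 0 of 3 members called by edgeR or DESeq2, none with an unadjusted p under 0.05. MiR-148a-3p had a log2 fold change against ZDF placebo of 0.12, miR-148b-3p of 0.22 and miR-152-3p of -0.58, with edgeR adjusted p-values of 0.812, 0.751 and 0.446. The sign of miR-148a-3p and miR-148b-3p turned when total miRNA reads replaced TMM, to -0.23 and -0.11, and that of miR-152-3p turned to 0.30 on the extraction controls, so no direction is given. Each of these scalings shifts all miRNAs of a library together, so such a turn is not particular to the member. In the same comparison the erythrocyte list rose for 4 of 4 miRNAs, median 0.95, and the liver list fell for 4 of 4, median -1.42. The paper had already reported miRNAs of the liver list as lowered by insulin in these sera, so that count is no independent result. The part of erythrocyte and liver RNA in the family's values was not tested. In a fit with a hemolysis ratio (miR-451-5p over miR-23a-3p) as covariate, miR-148a-3p stood at -0.73. The erythrocyte list took 23.0 to 27.3% of miRNA reads in insulin sera and 9.93 to 16.0% in ZDF placebo sera. With ranges so far apart, a covariate of this kind cannot be told apart from insulin.

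**Figure D2:**
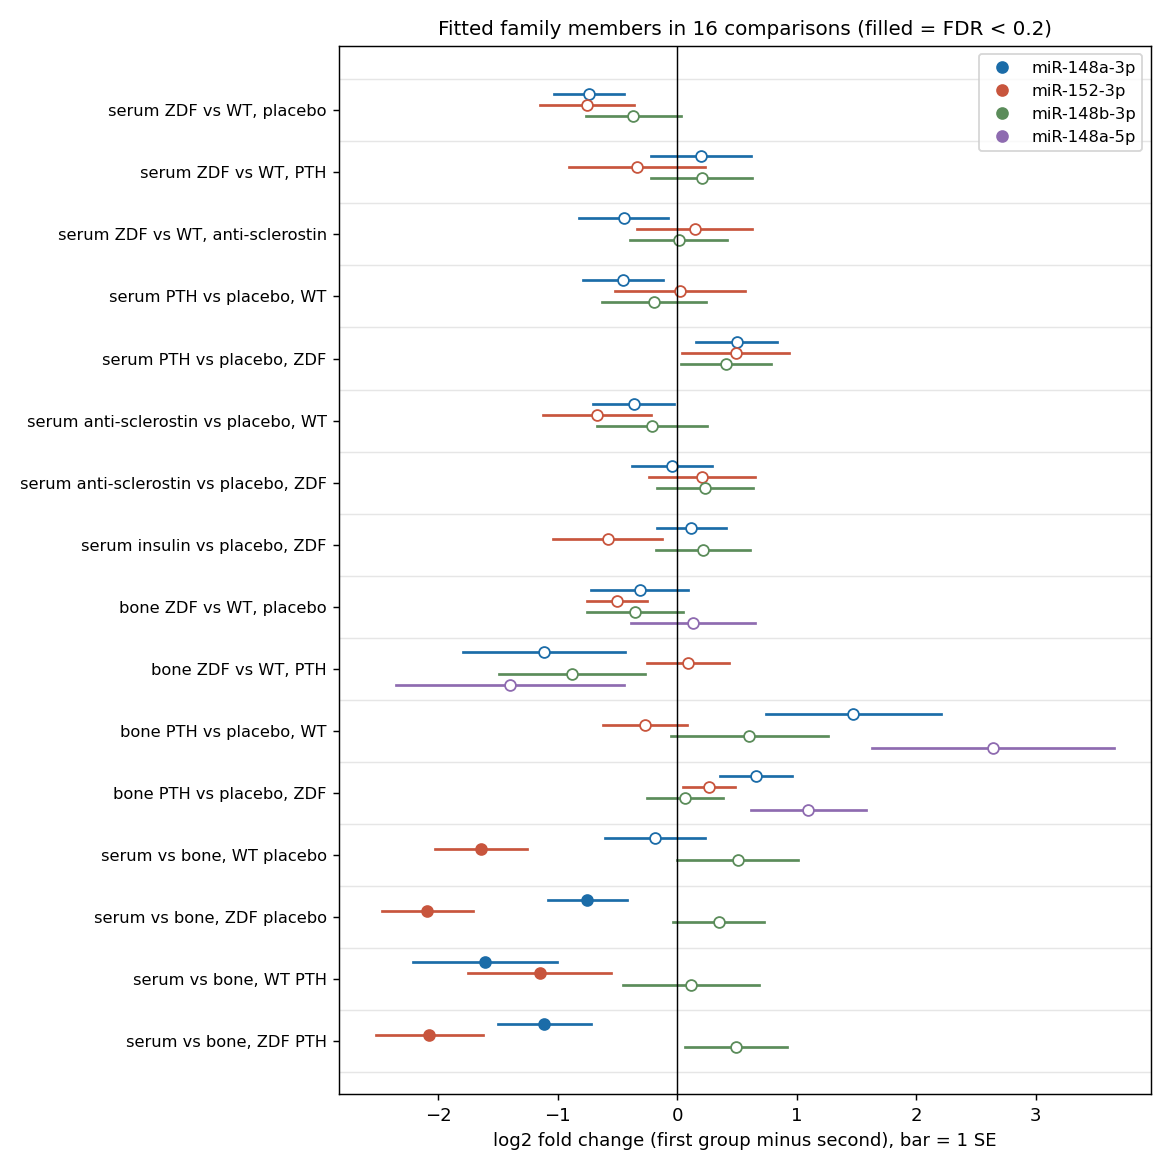
Log2 fold changes (first group over second) of the fitted members (colours) from the edgeR fits in 16 comparisons, with bars of 1 SE on each side; filled points had an adjusted p (FDR) under 0.2 and open points did not. All filled points are in the serum against bone comparisons, where miR-152-3p lies between -2.09 and -1.15.

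In bone, miR-152-3p had the narrowest span of group means among the 4 tested members and the arms of miR-148a the widest. MiR-152-3p held 2743, 3148, 2610 and 2478 CPM in WT placebo ulna and 1842, 2139, 1691 and 2261 CPM in ZDF placebo ulna. On this scale every ZDF bone was below every WT bone, and the share of all miRNAs that were so separated was not counted. Per miRNA read without TMM the 2 groups overlapped (2019 to 3397 in WT and 1691 to 2301 in ZDF, scaled as CPM), and so they did as RPM over all library reads (158 to 502 and 91.3 to 363). The log2 fold change was -0.51 (SE 0.251, 95% interval -1.06 to 0.045, edgeR adjusted p 0.349), which did not pass, and the exact two-sided permutation p of 0.0286 is the smallest that 4 against 4 can give. Under PTH the genotypes overlapped, at 2775, 1441, 2580 and 1963 CPM in WT and 2641, 2395, 2094 and 2234 CPM in ZDF. The group means of miR-152-3p spanned 1.38-fold, against 1.91-fold for miR-148b-3p, 3.01-fold for miR-148a-3p and 5.79-fold for miR-148a-5p.

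MiR-148a-3p held 10209, 4522, 4293 and 3382 CPM in WT placebo bones and 5285, 4734, 2547 and 6046 CPM in ZDF placebo bones. These groups overlapped, and in ZDF against WT the log2 fold changes of miR-148a-3p, miR-148b-3p and miR-148a-5p were -0.31, -0.35 and 0.13. With miR-152-3p, 0 of 4 members passed, beside 2.55% of 235 miRNAs. DESeq2 also called 0, and no member had an unadjusted p under 0.05. ZDF against WT under PTH likewise had 0 of 4 members called, beside 3.27% of 214 miRNAs, none with an unadjusted p under 0.05 and none called by DESeq2. There miR-148a-3p had a log2 fold change of -1.11 (edgeR adjusted p 0.424), miR-148a-5p of -1.40, miR-148b-3p of -0.88 and miR-152-3p of 0.09.

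PTH builds bone when given intermittently, and its effect in WT ulna was the comparison in which the log2 fold changes of the members lay farthest apart, from -0.27 to 2.64, against 0.06 to 1.10 in ZDF ulna. Under PTH, WT bones held 15074, 33139, 5220 and 2633 CPM of miR-148a-3p, and ZDF bones 7956, 7001, 9464 and 4497 CPM. The WT PTH bones covered a range of more than 10-fold that included the WT placebo bones. The log2 fold change over placebo was 1.48 in WT (SE 0.733, 95% interval -0.119 to 3.07, edgeR adjusted p 0.309) and 0.66 in ZDF (SE 0.304, edgeR adjusted p 0.678). Exact two-sided permutation gave p = 0.4 in WT and p = 0.143 in ZDF, where 0.0286 is the smallest possible with 4 against 4.

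Its 5p strand, the minor one, had the same sign. MiR-148a-5p had 42, 22, 37 and 32 reads in WT placebo bones and 11, 62, 20 and 22 in WT PTH bones, which after scaling became 189, 52.4, 65.9 and 41.3 CPM against 220, 1624, 109 and 62.5 CPM. In ZDF it held 138, 90.4, 57.6 and 89.1 CPM under placebo and 288, 219, 250 and 55.3 CPM under PTH. Groups overlapped in both genotypes. The log2 fold change was 2.64 in WT (SE 1.012, 95% interval 0.44 to 4.84, edgeR adjusted p 0.217) and 1.10 in ZDF (SE 0.480, edgeR adjusted p 0.678). MiR-148b-3p had 0.60 in WT and 0.06 in ZDF, and miR-152-3p -0.27 and 0.27. Thus 0 of 4 members passed in WT, beside 5.41% of 222 miRNAs, all 12 of them lower under PTH, and 0 of 4 in ZDF, beside 0% of 215. In each of these 2 comparisons 1 member, miR-148a-5p, had an unadjusted p under 0.05, and DESeq2 called it in WT and no member in ZDF.

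The WT values rested on single libraries. Libraries are numbered in the order in which their values are listed. Without WT placebo bone 1, which stood at 10209 CPM of miR-148a-3p, miR-148a-3p and miR-148a-5p passed in WT, at 1.99 (edgeR adjusted p 0.113) and 3.31 (edgeR adjusted p 0.0661), and the miRNAs called rose from 12 to 89. Without WT PTH bone 4 they passed too, at 1.84 and 3.08, both with an edgeR adjusted p of 0.155. Without WT PTH bone 3, miR-148a-5p alone passed, at 3.14 (edgeR adjusted p 0.178). Without WT PTH bone 2, at 33139 CPM of miR-148a-3p and 1624 CPM of miR-148a-5p, the values shrank to 0.44 (edgeR adjusted p 0.761) and 0.46 (edgeR adjusted p 0.777), that of miR-148b-3p turned to -0.14, and the miRNAs called went from 12 to 0. Without that bone ZDF against WT under PTH stood at -0.10 for miR-148a-3p, 0.80 for miR-148a-5p and -0.14 for miR-148b-3p. Leaving out WT placebo bone 1 together with WT PTH bone 2, the shallowest of their groups, gave 1.04 (edgeR adjusted p 0.184) and 1.14 (edgeR adjusted p 0.0949). In ZDF, miR-148a-5p passed without ZDF PTH bone 4, at 1.43 (edgeR adjusted p 0.153).

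The direction also depended on what the reads were set against. Set against all reads, miR-148a-3p was at 590, 720, 446 and 407 RPM (scaled to all reads of the library, of any kind) in WT placebo bones and at 293, 479, 346 and 238 RPM in WT PTH bones, means of 541 ± 143 and 339 ± 104 (SD, n = 4 each). On this scale the log2 difference of PTH from placebo in WT was -0.68 for miR-148a-3p, -1.17 for miR-148b-3p and -1.89 for miR-152-3p, and 0.11 for miR-148a-5p, with no test. In ZDF bones miR-148a-3p went from 262, 804, 152.1 and 487 to 971, 427, 627 and 553 RPM, with overlap. WT PTH bones held 41627 to 282285 miRNA reads, 1.58 to 7.23% of their reads, and WT placebo bones 195045 to 952131, or 5.06 to 14.8%. RPM over all library reads moves with this share for every miRNA, so a fall on that scale is not particular to a member. Across the 16 bones, log2 CPM of miR-148a-3p and log2 miRNA reads had a Pearson r of -0.618, and -0.431 without WT PTH bone 2, as a description only, since both share the library. For miR-152-3p these were 0.344 and 0.06. With RPM over all library reads the r was 0.44 for miR-148a-3p and 0.872 for miR-152-3p, and 0.538 and 0.839 without that bone. In the same WT PTH bones the striated muscle list was low, at 5.34 to 7.16% against 6.28 to 33.0% in WT placebo bones, of which WT placebo bone 1 had the lowest. The part of depth and of muscle RNA in these values was not tested.

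**Figure D3:**
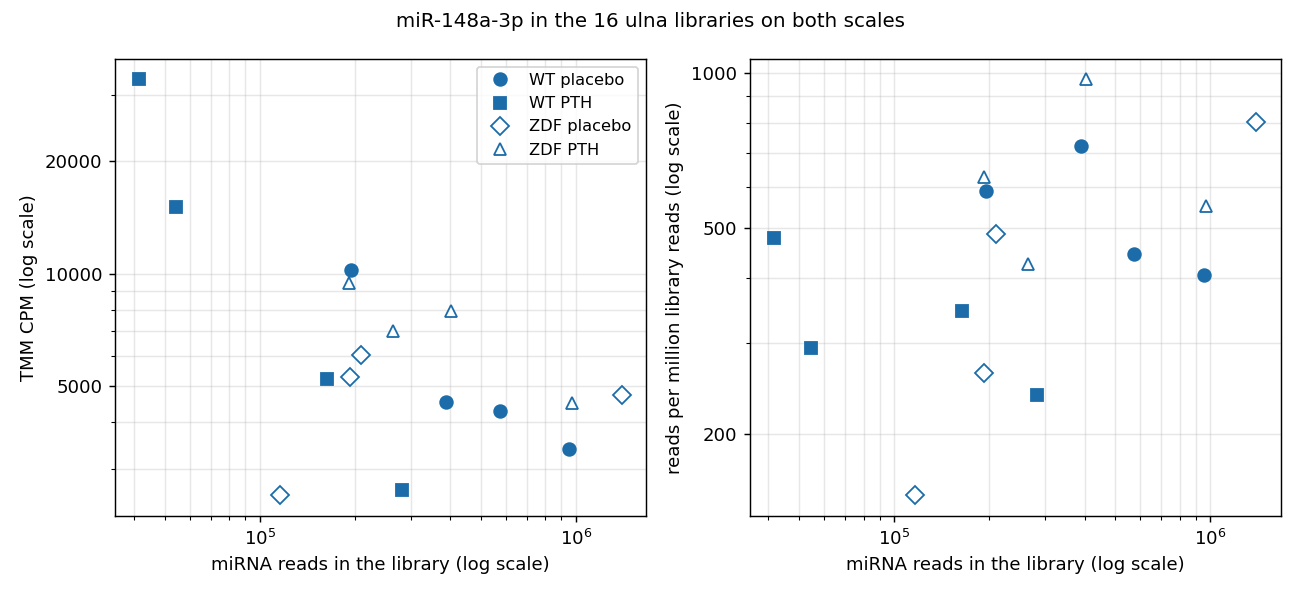
MiR-148a-3p in the 16 ulna libraries (symbols by group) against the miRNA reads of the library, as TMM CPM on the left and as RPM over all library reads on the right, all on log axes. WT PTH bones average higher than WT placebo bones on the first scale (14016 against 5602) and lower on the second (339 against 541).

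Whether a treatment acted differently in the 2 genotypes was asked by an interaction term over 4 groups. For PTH in serum the differences of the 3 members, ZDF minus WT, lay between 0.34 and 0.91 with edgeR adjusted p-values from 0.922. For anti-sclerostin in serum they lay between 0.34 and 0.90, and for PTH in bone those of 4 members between -1.36 and 0.56, or between 0.25 and 0.65 without WT PTH bone 2. None passed by edgeR or DESeq2, 0 of all miRNAs passed in any of the 3, and no member had an unadjusted p under 0.05.

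Serum and ulna of the same genotype and treatment differed in most miRNAs and in the makeup of the family. Bone was ground and lysed before extraction with the kit also used for serum, so tissue and preparation cannot be told apart, and with all libraries scaled together the share of miRNAs called was 80.6% in WT placebo, 86.1% in ZDF placebo, 79.9% in WT PTH and 81.6% in ZDF PTH. Against that background a called member is not unusual. MiR-152-3p was lower in serum in all 4, by 1.64 (SE 0.384), 2.09 (SE 0.382), 1.15 (SE 0.598) and 2.07 (SE 0.445) on the log2 scale in that order, with edgeR adjusted p-values of 0.00141, 0.000123, 0.0861 and 0.000477. On this common scale its means were 713 ± 323 CPM in 5 WT placebo sera and 2602 ± 596 CPM in 4 WT placebo bones (SD). Sera and bones did not overlap in WT placebo, ZDF placebo and ZDF PTH, and overlapped in WT PTH. How many of all miRNAs were so separated was not counted. The direction of miR-152-3p was the same under every alternative run, from -2.56 to -0.95, while the median of all miRNAs was -0.10, -0.21, 0.07 and -0.42.

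MiR-148a-3p was called lower in serum in 3 of the 4 pairs. Its log2 fold changes were -0.19 in WT placebo (edgeR adjusted p 0.693), -0.75 in ZDF placebo (0.0492), -1.61 in WT PTH (0.0188) and -1.11 in ZDF PTH (0.0162), and sera and bones overlapped in each pair. In ZDF placebo the call was lost without serum 2, 4 or 5, at -0.51, -0.54 or -0.45. In WT PTH the value without WT PTH bone 2 was -0.93 (edgeR adjusted p 0.145). MiR-148b-3p had log2 fold changes of 0.51, 0.35, 0.12 and 0.49 and did not pass in any pair, with edgeR adjusted p-values from 0.309 to 0.865.

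The 2 tissues thus held the family in different proportions. Of the reads of the 3 3p strands, miR-148a-3p made up 79.4 ± 8.07% in serum and 69.5 ± 10.8% in bone (SD, n = 32 and n = 16). MiR-152-3p made up 14.4 ± 7.93% in serum, from 2.96 to 37.8%, and 28.3 ± 10.5% in bone, from 4.09 to 41.9%. MiR-148b-3p was 6.20 ± 2.03% in serum and 2.22 ± 0.728% in bone. These shares need no scaling between libraries. Insulin and anti-sclerostin sera, which have no matching bones, are among the 32. Mean shares of miR-152-3p in WT placebo, ZDF placebo, WT PTH and ZDF PTH were 14.16, 13.06, 19.79 and 14.21% in serum. In bone they were 34.75, 30.13, 23.4 and 24.94%, in that order. The ranges of all 3 overlapped between the tissues, at 2.69 to 11.5% and 1.37 to 4.23% for miR-148b-3p, and the bone with the smallest share of miR-152-3p was WT PTH bone 2.

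**Figure D4:**
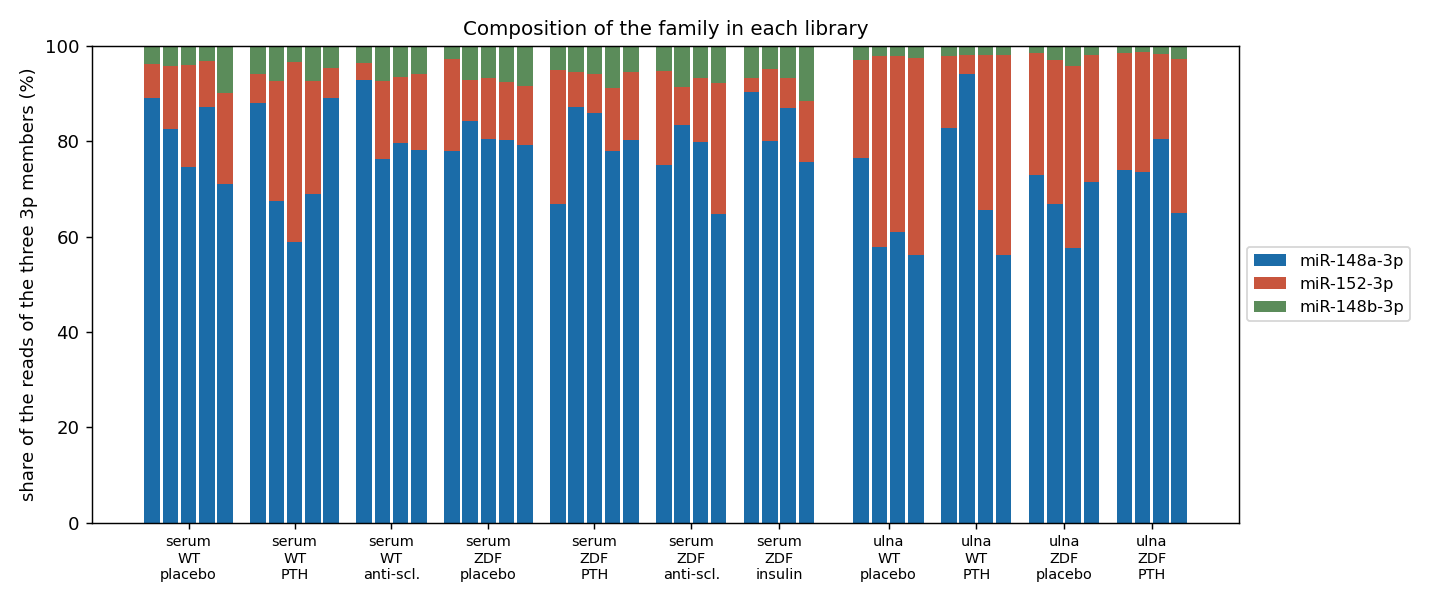
Percent of the reads on the 3 3p strands that each strand (colours) took; every stacked bar is 1 library, set by group, with serum on the left and ulna on the right. MiR-152-3p averages 14.4% in serum and 28.3% in bone, and 1 WT PTH bone stands at 4.09%.

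The arms of miR-148a were also balanced differently, again with treatments among the sera that have no bones. Pooled over libraries, the 5p strand was 41 of 10447 miR-148a reads in serum, or 0.392% (exact Clopper-Pearson 95% interval 0.282 to 0.532%), and 670 of 32905 in bone, or 2.04% (1.89 to 2.20%). These intervals cover counting error only, since reads without molecular identifiers are not independent molecules. Per library the share was 0 to 1.44% in serum and 1.15 to 4.67% in bone, and the 2 ranges overlapped slightly. MiR-148a-5p was not tested between tissues with the filter. Its sera and bones did not overlap in any of the 4 pairs, though narrowly in WT placebo (sera up to 25.5 CPM, bones from 31.9 CPM). The share of all miRNAs without overlap was not counted. Without a filter, miR-148a-5p had log2 fold changes of -2.54, -3.37, -4.93 and -3.39 for WT placebo, ZDF placebo, WT PTH and ZDF PTH, with edgeR adjusted p-values of 0.00132, 2.03e-05, 1.64e-08 and 2.44e-06. These rest on 0 to 6 reads a serum library, and with the filter 79.9 to 86.1% of all miRNAs were called in these pairs. For miR-148b the pooled 5p share was 9.47% in serum (7.57 to 11.7%) and 6.97% in bone (5.59 to 8.57%). For miR-152 it was 0.713% in serum (0.369 to 1.24%) and 0.960% in bone (0.808 to 1.13%). The intervals of serum and bone overlapped for both.

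**Figure D5:**
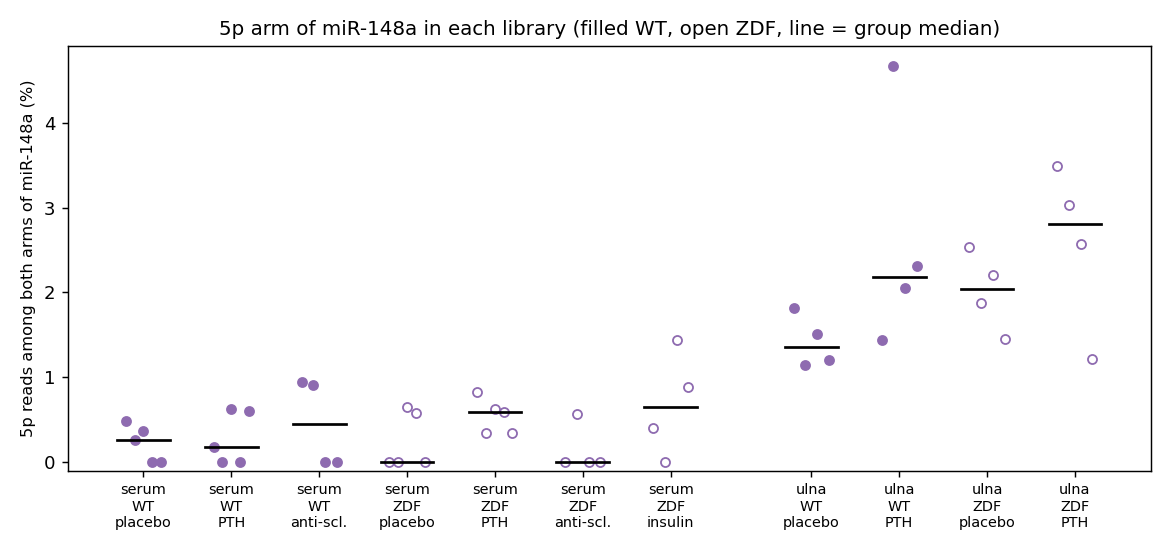
Percent of miR-148a reads that were the 5p strand in each library, by group; points are libraries (filled WT, open ZDF) and lines group medians. Sera lie between 0 and 1.44% and bones between 1.15 and 4.67%.

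Beside the family, 8 other miRNAs known to target DNA methyltransferases directly or to be linked to them were followed as a list (miR-29a-3p, miR-29b-3p, miR-29c-3p, miR-143-3p, miR-185-5p, miR-342-3p, miR-101a-3p and miR-101b-3p). They summed to 2.54 to 18.6% of the miRNA reads in serum and 7.93 to 36.6% in bone, far above the family. In serum against bone, miR-185-5p and miR-342-3p were higher in all 4 pairs, at 2.70, 1.77, 2.78 and 1.92 and at 2.49, 3.86, 3.74 and 3.44 on the log2 scale. MiR-143-3p was lower in all 4, at -2.07, -1.49, -3.48 and -1.84, and so was miR-101a-3p, at -1.43, -2.11, -2.21 and -2.53. Of the 8, 3 were higher and 2 lower in WT placebo, 3 and 3 in ZDF placebo, 3 and 2 in WT PTH, and 2 and 2 in ZDF PTH, beside 80.6%, 86.1%, 79.9% and 81.6% of all miRNAs called. Within a tissue the list had calls under insulin, where miR-29a-3p fell by 0.87 (edgeR adjusted p 0.0646) and miR-29c-3p fell by 0.84 (edgeR adjusted p 0.0815), 2 of 8 beside 26.5% of all miRNAs, and under anti-sclerostin in ZDF, where miR-143-3p fell by 2.53 (edgeR adjusted p 0.15), 1 of 8 beside 1.27%. In the other 10 comparisons within a tissue 0 of 8 passed by edgeR, as in the family.

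How far the members varied together differed from pair to pair. Across 32 sera, Pearson r of log2 (CPM + 1) was 0.43 between miR-148a-3p and miR-148b-3p, -0.08 between miR-148a-3p and miR-152-3p, and -0.16 between miR-148b-3p and miR-152-3p. Across 16 bones it was 0.92 between the arms of miR-148a, 0.81 between miR-148a-3p and miR-148b-3p, and 0.66 between miR-148a-5p and miR-148b-3p. With miR-152-3p in bone it was -0.13 for miR-148a-3p, -0.36 for miR-148a-5p and -0.18 for miR-148b-3p. These are descriptions over libraries that share groups and depth, and no difference between the tissues was tested. Among 195 other miRNAs in serum, those most like miR-148a-3p were miR-19b-3p (0.79), miR-151-3p, miR-27a-5p and miR-19a-3p (0.73 each) and miR-181d-5p (0.67). For miR-152-3p they were miR-125b-5p (0.86), miR-99a-5p (0.80), miR-125a-5p (0.79), miR-10a-5p (0.73) and miR-218a-5p (0.72), and for miR-148b-3p no miRNA passed 0.46 (miR-181c-5p), followed by miR-17-5p (0.45), miR-20a-5p (0.44), miR-16-5p and miR-15b-5p (0.40 each).

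Different miRNAs led in bone, where 239 were ranked. MiR-148a-3p was most like miR-181a-1-3p (0.87), miR-143-3p (0.86), miR-101a-3p (0.82), miR-10a-5p (0.81) and miR-28-3p (0.80). For miR-148a-5p they were miR-30a-5p and miR-532-5p (0.85 each), miR-181a-1-3p and miR-143-3p (0.84 each) and miR-28-3p (0.83). MiR-148b-3p was most like miR-450b-5p (0.82), miR-30e-5p (0.80), miR-10a-5p (0.72), miR-106b-5p and miR-143-3p (0.70 each). MiR-152-3p was most like miR-181c-5p (0.73), miR-425-5p and miR-708-5p (0.66 each), miR-191a-3p (0.63) and miR-15b-5p (0.61).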

How the data were processed

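Small RNA was sequenced from 32 sera and 16 ulnae. The authors trimmed reads with cutadapt, discarded those under 17 nt, aligned the rest by Bowtie and miRDeep2 against the rat genome, then miRBase, and counted reads per mature miRNA; the deposited counts are whole numbers without normalization. The authors' RPM values, scaled to all reads of a library, gave the library totals here. A further column scaled to miRNA reads was not used. The authors ran edgeR for their own tests.

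Counts were tested in R 4.3.3 with edgeR 4.0.16 (quasi-likelihood, legacy = TRUE, robust = FALSE) and limma 3.58.1, after TMM scaling and filterByExpr (min.count 10, min.total.count 15), with only the compared groups in the fit. Benjamini-Hochberg adjustment was over all miRNAs fitted, with a threshold of 0.2. This filter replaced the study's independent filtering, which was run as an alternative. Single levels were compared by exact two-sided permutation of log2 (CPM + 1) in Python 3.11.15 with scipy 1.17.1. Ratios used 0.5 read as pseudocount. Depth was 28015 to 205664 miRNA reads per serum and 41627 to 1398702 per bone. In 82 pairs of libraries of a group the counts differed beyond counting noise (chi-square per degree of freedom at least 12.7), so all were kept. Only the edgeR fit was run on simulated counts, for ZDF against WT placebo sera and for PTH in WT bone. The exact permutation test was not simulated.

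The members, the tests and the lists (DNA methyltransferase, erythrocyte, liver, striated muscle, leukocyte, endothelium and platelet, skeletal mesenchyme and cartilage) were chosen with earlier results of these data known. All 6 members were named, and for each with a mean of at least 10 reads in a tissue the 5 miRNAs of highest Pearson r. Alternatives were other scalings, DESeq2 1.42.0, other filters, all groups in a fit, other spread estimates, an adjusted p of 0.05, a hemolysis covariate and each replicate left out. Sequences are from RefSeq (GRCr8), where 5 of 6 members matched.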

Additional observations from a re-analysis of the deposited data

Results flagged for a closer look

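Within groups of 4 or 5 libraries, 1 library stood far from the others in 5 of 37 tests of a member's level. Chance gives about 1 in 20 for a single test. These tests were not independent, since several were of the same library through members that vary together. The count is therefore not set against chance. WT placebo bone 1 held 10209 CPM of miR-148a-3p (others 3382 to 4522), 386 CPM of miR-148b-3p (others 144 to 159) and 189 CPM of miR-148a-5p (others 41.2 to 65.9). That bone was the shallowest of its group and had its lowest striated muscle list, 6.28% of miRNA reads, and its highest DNA methyltransferase list, 25.7% against 7.93 to 10.6% in the other 3. WT PTH bone 2 held 1624 CPM of miR-148a-5p from 62 reads (others 62.5 to 220), with 41627 miRNA reads in all. Neither depth nor muscle RNA was tested as a cause. In serum, ZDF PTH serum 3 held 519 CPM of miR-148b-3p (others 200 to 237) and also had the highest miR-148a-3p of all sera, 7462 CPM.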

How the results depend on the processing

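No paired analysis was possible because the labels do not link the bone and the serum of a rat. The members called moved as follows. ZDF against WT placebo sera went from 0 to 1 with DESeq2 (miR-148a-3p, -0.73) and 2 on the extraction controls (miR-148a-3p -1.52, miR-152-3p -1.87), a scaling that shifted the median of all miRNAs to -1.03. For PTH in ZDF sera the extraction controls gave 3, beside 88 of 154 miRNAs and a median of 1.42. PTH in WT bone went from 0 to 1 with total miRNA reads, DESeq2, all groups in a fit or legacy = FALSE, and to 2 without a filter, with independent filtering or without both shallowest bones. Serum against bone went from 1 to 4 in WT placebo with DESeq2, no filter or independent filtering and to 2 with all groups; from 2 to 5 in ZDF placebo with DESeq2 and to 4 without a filter or with independent filtering; from 2 to 4 in ZDF PTH with these 3; and to 1 in WT PTH at an adjusted p of 0.05. Without a filter more members are tested. Otherwise the cause was not tested. Independent filtering left no member in ZDF against WT sera under PTH.

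Signs turned without a call under insulin, to -0.23 and -0.73 for miR-148a-3p (total reads, hemolysis covariate), -0.11 and -0.08 for miR-148b-3p (the same) and 0.30 for miR-152-3p (extraction controls). For miR-148b-3p in WT PTH serum against bone they turned to -0.08 (DESeq2 size factors), -0.25 (total reads), -0.17 (DESeq2) and -0.44 (all groups), and for PTH in WT bone as RPM over all library reads to -0.68 (miR-148a-3p) and -1.17 (miR-148b-3p). A change of scaling shifts all miRNAs of a library together, so a sign turned by it is not particular to a member. RPM over all library reads and the omission of both shallowest bones were chosen after seeing the data.

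Leaving out 1 library gave 0 to 1 member called in ZDF against WT for placebo sera (miR-148a-3p, -0.87 without ZDF serum 3), placebo bones (miR-148a-5p, 0.82 without WT bone 1, with 87 miRNAs called in place of 6) and PTH bones (miR-148a-3p, -1.40 without WT bone 4). It gave 0 to 2 for PTH in WT bone, 0 to 1 in ZDF bone, and 1 to 2 and 1 to 3 for serum against bone in WT and ZDF placebo. MiR-148a-3p ranged from -0.10 to 0.27 under insulin, -0.53 to 0.17 in ZDF against WT placebo bone and -0.39 to 0.47 in WT placebo serum against bone. MiR-148b-3p ranged from -0.56 to 0.12 in ZDF against WT placebo bone, -0.14 to 1.05 and -0.07 to 0.20 for PTH in WT and ZDF bone, and -0.07 to 0.58 and -0.27 to 0.55 in serum against bone for ZDF placebo and WT PTH. Of 623 values of 62 members and comparisons under other settings, 578 kept sign and side of the threshold, as did 572 of 639 with 1 library left out, and 0 turned sign while called. With 6 to 66 reads of miR-148b-3p a serum, depth limits that member, and the 5p strands more.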
